A study of Drosophila melanogaster with 3 samples.

Results

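Small nucleolar RNA (snoRNA) genes and the genes that host them were examined for binding of wek in Drosophila embryos. All genes with the biotype snoRNA on the chromosome arms of the Ensembl annotation were taken, which gave 269 of 18277 genes, and a host was a gene on the same strand that spans the whole snoRNA gene. There were 92 such hosts. snoRNAs are nucleolar guide RNAs: those with boxes C and D direct ribose methylation of ribosomal RNA by the methyltransferase fibrillarin, and those with boxes H and ACA direct conversion of uridine to pseudouridine. Small Cajal body RNAs (scaRNAs) do the same for spliceosomal RNAs. In flies most snoRNAs are cut out of the introns of other genes, so their transcription starts at the promoter of the host. Many hosts encode ribosomal proteins, and the Uhg genes are hosts whose spliced transcripts code for no protein.

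The study mapped wek, which encodes a ZAD zinc finger protein and is known for linking the Toll receptor to its signalling partners, by chromatin immunoprecipitation and sequencing (ChIP-seq). The material was whole embryos aged 0 to 16 hours, males and females pooled, of 1 transgenic line that carries green fluorescent protein at the C terminus of wek. All 3 samples are biological replicates of this 1 group, with chromatin sonicated to between 200 and 800 bp. The descriptions name the libraries input controls, but their assay title and antibody label give wek ChIP, and they were treated as wek ChIP. What drives the fusion gene is not stated in the labels, and embryos without the tag were not analysed here.

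The deposited lists hold 3582 thresholded regions, called peaks here, and relaxed lists of 30000 regions each for the pooled replicates and for every replicate. Each region has a summit and a signal, which is the authors' own value and is used only for describing regions and ranking them inside a list, rank 1 being the highest. Peak signals ran from 146.3 to 4344 with a median of 218.4. Values per replicate rest on the 3582 strongest regions of that replicate. Read numbers are not in the lists, so sequencing depth is unknown. Replicate 2 was the weakest, with 2216 regions up to a q-value of 0.01 against 8919 and 9834 in replicates 1 and 3. Intervals are exact binomial ones at 95% and reflect nothing but the number of genes. No test of a share was run, because genes are not replicates and all shares come from the same 3 libraries.

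The snoRNA genes are short, with a median length of 134 bp (46 to 316 bp). From their names 107 were placed in the C/D class, 114 in the H/ACA class and 16 among the scaRNAs, while 32 were given no class. The 32 include snoRNA:MeU6-A47 and snoRNA:MeU6-C68, whose names give a methylated base of U6 RNA. Neither was near a peak. The arms X, 2L, 2R, 3L, 3R and 4 hold 31, 41, 96, 52, 48 and 1 of the snoRNA genes. A host was found for 247, of which 192 lie in a protein-coding host and 55 in a noncoding host. Of these, 227 lie in an intron and overlap no annotated exon of the host, 16 in an intron of some transcripts, and 4 overlap an exon. The remaining 22 have no host, also in the RefSeq annotation. From the nearest host transcription start site (TSS) at or before it to the 5′ end of the snoRNA the median distance was 1465 bp.

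Most snoRNA genes had no wek peak nearby, whereas 43 of the 92 hosts had a peak at a start site. A peak summit lay within 500 bp of the 5′ end of 23 of 269 snoRNA genes (8.55%, exact interval 5.50 to 12.6%), beside 13.1% of all genes. The highest regions of replicates 1, 2 and 3 put a summit near 22, 16 and 21 snoRNA genes (7.31% ± 1.20, SD, n = 3). In each replicate this share, 8.18%, 5.95% and 7.81%, was below the 13.6%, 11.2% and 13.7% of all genes. Other genes were searched at every annotated start site and snoRNA genes at their 5′ end. The part of this in the shares was not tested. A summit in all 3 replicates was found near 11 snoRNA genes (4.09%), beside 6.67% of all genes. In the weaker pooled list the share was 24.5% (66 genes), beside 46.7% of all genes. Among other classes of genes a peak summit was near 8.97% of tRNA genes, 5.66% of noncoding RNA genes, 3.12% of snRNA genes and 2.73% of pseudogenes. In place of the 23, asking for a summit in the highest regions of both other replicates gave 11 genes without replicate 1, 14 without replicate 3 and 16 without replicate 2. Each of these counts, like the 11 in all 3 replicates, includes snoRNA:Me18S-C1968, which is not among the 23.

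**Figure D1:**
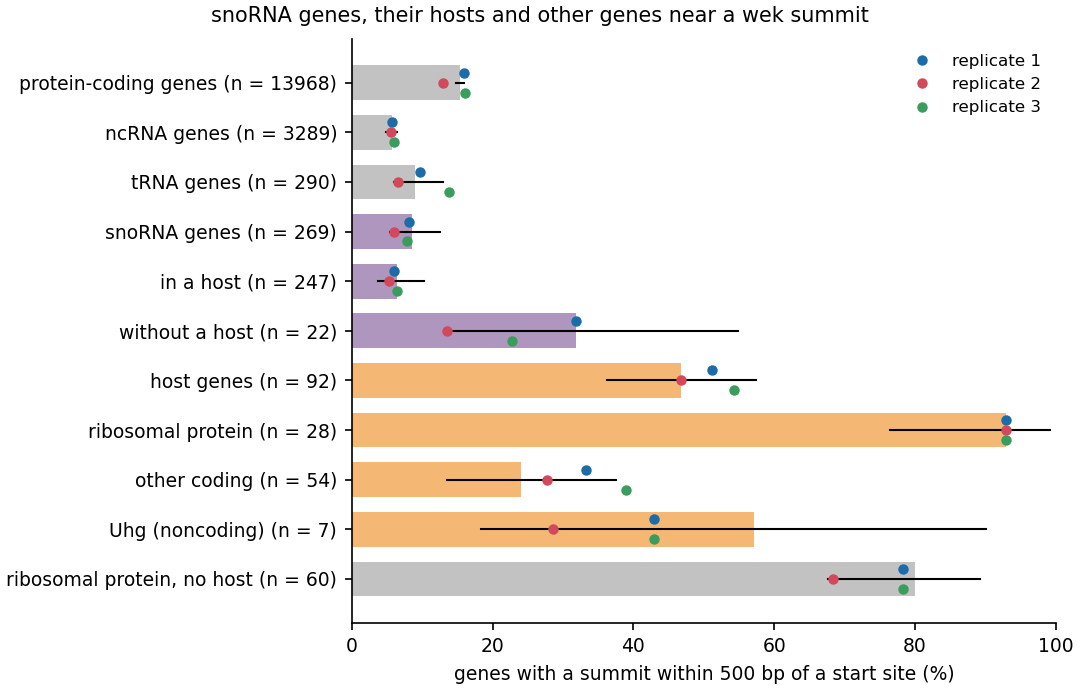
Share of genes with a wek summit within 500 bp of a start site, in percent, with the number of genes in each set in parentheses. Bars give the thresholded peaks, black lines their exact 95% binomial intervals, and points the highest 3582 regions of each replicate; ribosomal protein hosts stand at 92.9% in every replicate, snoRNA genes in a host at 5.26% to 6.48%.

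A host with a peak summit no more than 500 bp from any annotated TSS of its own is called bound. By that rule 43 of 92 hosts were bound (46.7%, exact interval 36.3 to 57.4%), beside 15.4% of all protein-coding genes. The replicates gave 47, 43 and 50 bound hosts (50.7% ± 3.82, SD, n = 3), and their shares of 51.1%, 46.7% and 54.3% each lay above the 16.0%, 13.0% and 16.1% of protein-coding genes. All 3 replicates placed a summit at 35 hosts (38.0%), beside 7.87% of protein-coding genes. The pooled list placed one at 76 hosts (82.6%), beside 52.0%. The hosts fall into groups with different shares, and the ribosomal protein genes among them carry most of the bound hosts. Without them 17 of 64 hosts were bound. At 14 of the 43 bound hosts, 9 of them ribosomal protein genes, the summit was also within 500 bp of another protein-coding TSS. This count was not taken over all bound genes.

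Ribosomal protein genes make the proteins of the cytosolic ribosome, whose RNA the snoRNAs modify. Of the 28 that host a snoRNA, 26 were bound (92.9%, exact interval 76.5 to 99.1%), with 26 in each replicate and 24 in all 3. Ribosomal protein genes that host no snoRNA were bound in 48 of 60 cases (80.0%, exact interval 67.7 to 89.2%), so the intervals of both kinds overlap, and a difference between them was not tested. The strongest host peak was that of RpS20, which codes for a protein of the small subunit. It ranked 2 among the peaks with a signal of 4319, and it ranked 2, 1 and 13 in replicates 1, 2 and 3. RpS4 ranked 30 among the peaks with a signal of 1886, and 35, 50 and 7 in the replicates. RpL13A, of the large subunit, ranked 191 with a signal of 836.5, and 194, 348 and 109 in the replicates. RpL10Ab, also of the large subunit, ranked 267 with a signal of 688.7, and 236, 290 and 352. These 4 peaks thus stood near the top of every replicate's list of 30000 regions. The summit lay 144 bp before the TSS of RpS20 and 21, 8 and 29 bp before those of RpS4, RpL13A and RpL10Ab. That at RpS20 was also within 500 bp of the start of CG17271, and that at RpL13A of the starts of Dph4 and Spec2.

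The sequence under several of these summits is shown. At bound hosts the summit lies within 500 bp of a TSS by the rule for bound. The windows were read from the RefSeq genome (dm6, Release 6) as the strand of the gene, 5′ to 3′, within 100 bp of the summit and without annotated exons. Capitals mark matches, on either strand, to 1 of the 6 elements counted below, and a window without capitals holds none in the part shown. RpS20, RpS4, CG1142 and RpL13A are the first by peak signal among bound hosts with a printable window that holds the summit. RpL10Ab and the noncoding host Uhg2 were chosen after their values were seen, for their elements, and snoRNA:Psi18S-301 as a gene without a host. The windows are chr3R:20821937-20822137 on the plus strand for RpS20, chr3L:13041635-13041755 on the plus strand for RpS4, chr3R:7473830-7474030 on the minus strand for CG1142 and chr3R:5624366-5624473 on the plus strand for RpL13A. Those of the others are chr3L:11822722-11822850 on the plus strand for RpL10Ab, chr2L:9895004-9895134 on the minus strand for Uhg2 and chr3R:20574743-20574943 on the plus strand for snoRNA:Psi18S-301, whose window runs into the gene.
RpS20: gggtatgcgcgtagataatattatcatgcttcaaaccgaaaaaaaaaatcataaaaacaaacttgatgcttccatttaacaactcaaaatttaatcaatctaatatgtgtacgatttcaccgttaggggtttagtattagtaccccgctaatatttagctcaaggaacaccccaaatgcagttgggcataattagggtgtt
RpS4: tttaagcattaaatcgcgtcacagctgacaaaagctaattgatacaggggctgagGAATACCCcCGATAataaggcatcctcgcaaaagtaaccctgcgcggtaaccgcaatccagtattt
CG1142: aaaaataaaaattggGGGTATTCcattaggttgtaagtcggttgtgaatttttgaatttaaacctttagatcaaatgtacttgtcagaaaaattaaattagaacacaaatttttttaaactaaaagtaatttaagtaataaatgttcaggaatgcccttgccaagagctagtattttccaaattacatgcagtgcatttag
RpL13A: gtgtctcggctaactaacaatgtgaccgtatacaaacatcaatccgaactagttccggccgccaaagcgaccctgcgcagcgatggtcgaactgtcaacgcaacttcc
RpL10Ab: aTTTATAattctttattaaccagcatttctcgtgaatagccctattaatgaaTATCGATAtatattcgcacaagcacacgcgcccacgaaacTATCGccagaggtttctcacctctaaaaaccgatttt
Uhg2: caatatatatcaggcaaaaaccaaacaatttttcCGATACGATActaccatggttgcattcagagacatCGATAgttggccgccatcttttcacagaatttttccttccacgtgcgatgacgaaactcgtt
snoRNA:Psi18S-301: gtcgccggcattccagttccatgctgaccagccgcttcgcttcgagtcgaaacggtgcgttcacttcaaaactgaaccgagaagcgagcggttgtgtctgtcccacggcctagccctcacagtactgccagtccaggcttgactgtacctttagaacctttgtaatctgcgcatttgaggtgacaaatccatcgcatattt

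The RpS4 window holds GAATACCC and, next to it, CGATA. The CG1142 window holds GAATACCC on the other strand, written there as GGGTATTC. The RpL10Ab window holds TATCGATA, a further CGATA and, on the other strand, TATAAA, and Uhg2 holds CGATA in 3 places. These elements are short, and such matches are descriptions of the letters, not sites.

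Peaks at ribosomal protein hosts lay close to the start. Their median signal was 525.5 and their highest 4319 (26 genes), beside 388.6 for the 48 bound ribosomal protein genes that host no snoRNA and 238.3 for all 2155 bound protein-coding genes. The summit lay within 50 bp of the TSS at 22 of the 26, beside 29.2% of the bound protein-coding genes. The median distance was 20.5 bp at the hosts, 15.5 bp at the other bound ribosomal protein genes and 100 bp at all bound protein-coding genes. RpL11, of the large subunit, ranked 27 with a signal of 2022, its summit 90 bp before the TSS, and it ranked 25, 44 and 18 in the replicates. RpL27A ranked 133 with a signal of 982.3, its summit 11 bp after the TSS, and 177, 172 and 75 in the replicates. RpL14 ranked 250 with a signal of 716.7, and 295, 278 and 165 in the replicates. Its summit lay 18 bp before the TSS and also within 500 bp of the start of Nelf-E. The peaks of RpL11, RpL27A and RpL14 stayed within the 295 highest regions of every replicate. RpS5a, which holds 14 snoRNA genes, had a peak of signal 446.9 at 37 bp before its TSS, ranked 542, 609 and 650 in the replicates.

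**Figure D2:**
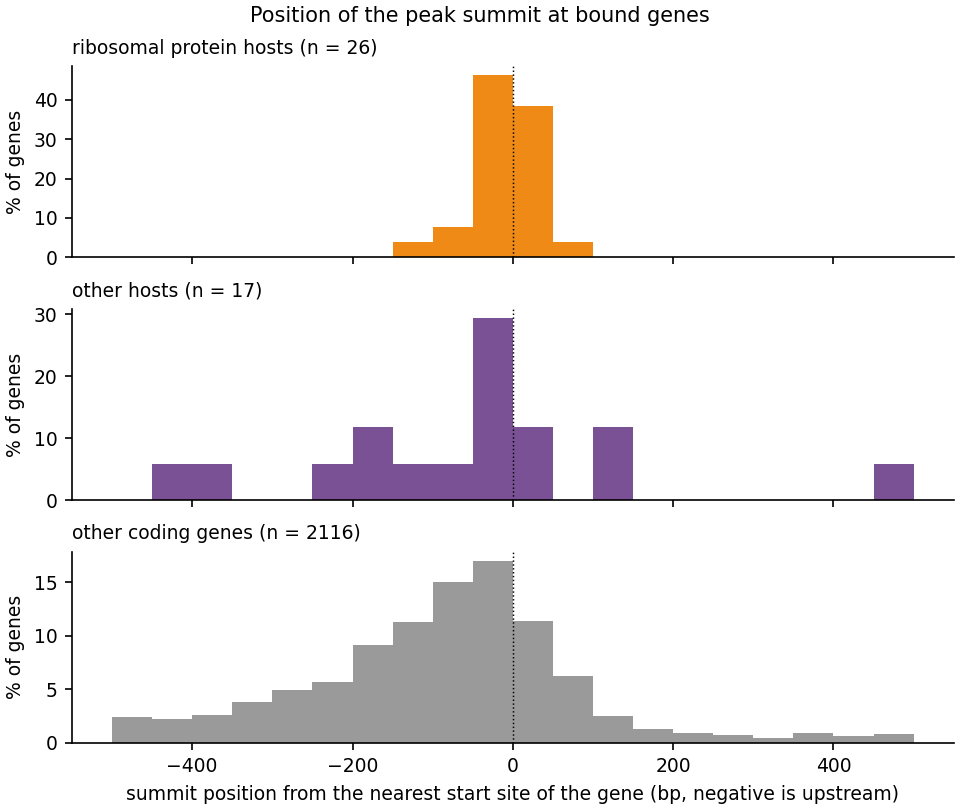
Distance in bp from the nearest TSS of the gene to the summit of its peak, negative values being upstream, as a percentage of the bound genes in bins of 50 bp; the vertical scales differ between panels. Summits at ribosomal protein hosts gather at the start site (median distance 20.5 bp), those at other bound hosts and at other coding genes spread further.

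The 2 ribosomal protein hosts that were not bound, RpL5 and RpS9, had weaker regions at their starts. The best pooled region at RpL5 ranked 3938 and that at RpS9 ranked 3689, below the 3582 peaks. Of the replicates, replicate 2 had RpL5 among its highest regions, and replicate 3 had RpS9. Other ribosomal protein hosts varied between replicates. RpS29 ranked 693 in replicate 1, 2879 in replicate 2 and 5334 in replicate 3. RpL22 ranked 1193 and 1636 in replicates 1 and 2 and 175 in replicate 3. The order of these genes by strength was thus not the same in every replicate.

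**Figure D3:**
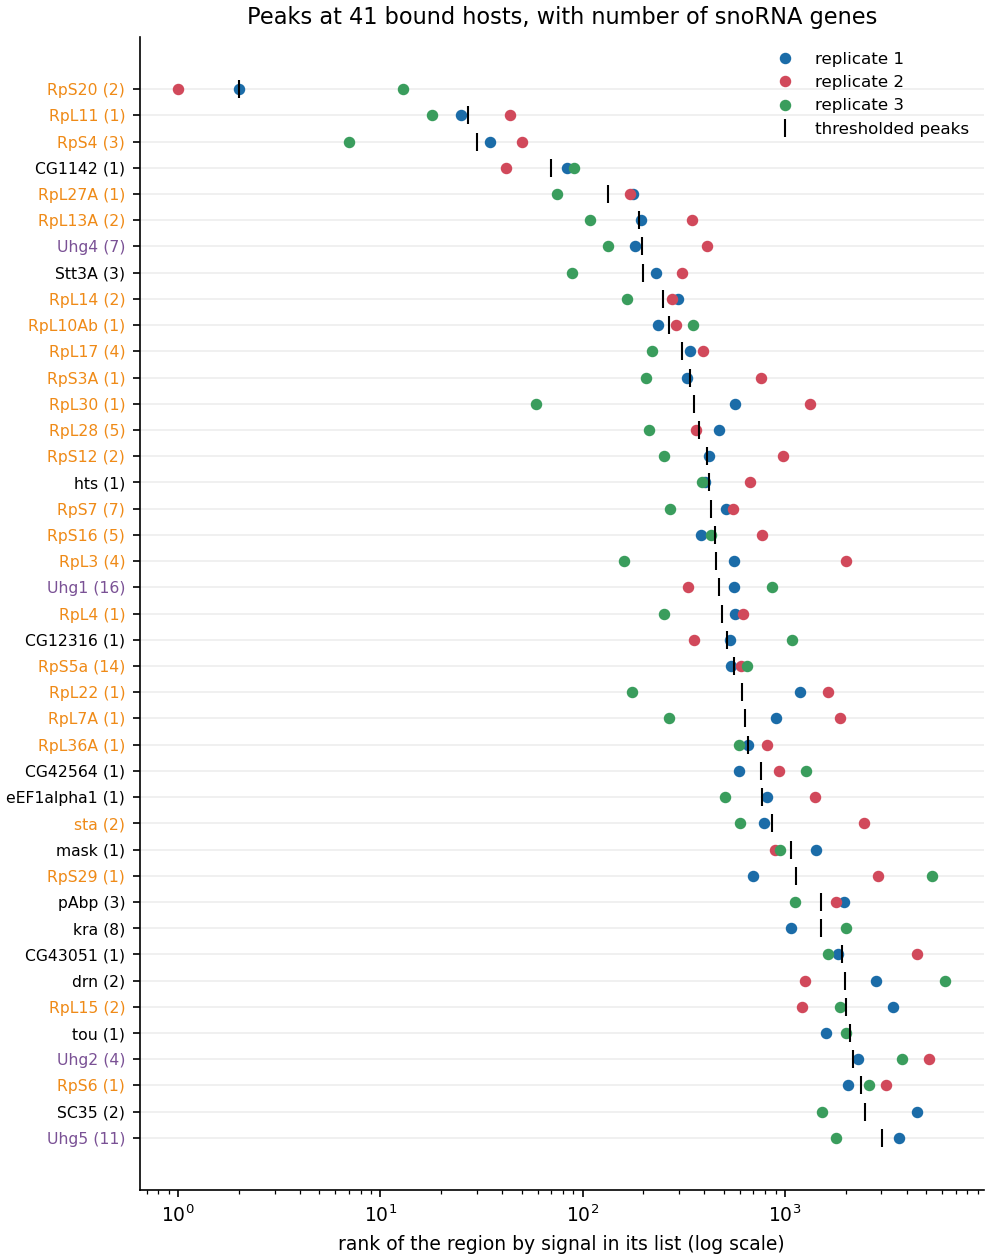
Rank by signal, on a logarithmic scale, of the region at 41 of the 43 bound hosts in each replicate (points) and among the thresholded peaks (black ticks), with the number of snoRNA genes in parentheses. Names are orange for ribosomal protein genes, purple for noncoding hosts and black for other coding hosts; a missing point means that the replicate had no region there, as at kra in replicate 2, and ranks run from 1 at RpS20 in replicate 2 to 6224 at drn in replicate 3.

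Among the other protein-coding hosts, 13 of 54 were bound (24.1%, exact interval 13.5 to 37.6%), with 18, 15 and 21 in the replicates (33.3% ± 5.56, SD, n = 3). Protein-coding genes that have an intron, host no snoRNA and code for no ribosomal protein were bound in 16.4% of cases. The interval of the hosts includes that share, although the replicates' shares of 33.3%, 27.8% and 38.9% lay above the 17.0%, 13.7% and 17.3% found for those genes. Peaks at these hosts had a median signal of 297.3 (181.1 to 1445), and 4 of the 13 summits lay within 50 bp of the TSS. CG1142 had the strongest, with a signal of 1445 and its summit 149 bp before the TSS, and it ranked 84, 42 and 91 in the replicates. Stt3A, a catalytic subunit of the oligosaccharyltransferase that glycosylates proteins, ranked 231, 311 and 89, but its summit lay 408 bp before its TSS and also within 500 bp of the start of bves. The 13 further include the translation elongation factor gene eEF1alpha1 (signal 359.7, ranks 813, 1412 and 506) and pAbp, which codes for the poly(A) binding protein (242.9, ranks 1968, 1795 and 1129). They also include hts, the fly adducin (522.7, ranks 405, 676 and 388), and SC35, a splicing factor (181.1). The summit at hts lay 228 bp before its TSS and also within 500 bp of the start of CalpA. SC35 ranked 4489 and 1524 in replicates 1 and 3 and had no region in replicate 2. The kra gene, with 8 snoRNA genes, likewise had none in replicate 2 and ranked 1072 and 1999 in the others.

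Of the 10 noncoding hosts, the 7 Uhg genes included 4 bound ones (57.1%, exact interval 18.4 to 90.1%), beside 5.66% of all noncoding RNA genes and 13.1% of all genes, and none of the 3 other noncoding hosts was bound. Replicates 1, 2 and 3 gave 3, 2 and 3 bound Uhg genes, and only 2 remained without any 1 of the replicates. Uhg4, with 7 snoRNA genes, had a peak of signal 830.7 at 35 bp before its TSS and ranked 181, 413 and 134 in the replicates. Uhg1, with 16 snoRNA genes, had a peak of signal 490.7 at 76 bp before its TSS and ranked 563, 334 and 861. It had a further peak of signal 179.5 at 689 bp before the TSS. Uhg4 and Uhg1 were thus high in all 3 replicates. Uhg2 was lower (signal 195.5, 31 bp before the TSS, ranks 2291, 5150 and 3787), within the highest 3582 regions of replicate 1 alone. Uhg5, with 11 snoRNA genes, had a peak of signal 161.4 at 12 bp after its TSS, ranked 3667 and 1783 in replicates 1 and 3, and had no region in replicate 2. The summit at Uhg2 was also within 500 bp of the start of Bka, and that at Uhg5 within 500 bp of the start of CG12863. Of the unbound Uhg genes, Uhg3 had a pooled summit 1 bp before its TSS at rank 26516, and Uhg8 had one at rank 11166. Uhg7 had none within 500 bp. The 4 snoRNA genes in Uhg7 also lie in the longer gene RpL23A, which the choice of the shorter host counted among genes hosting none. Likewise snoRNA:Psi18S-531, in an unbound noncoding host, also lies in RpL22, which was bound. With protein-coding hosts only, 40 of 83 hosts were bound.

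**Figure D4:**
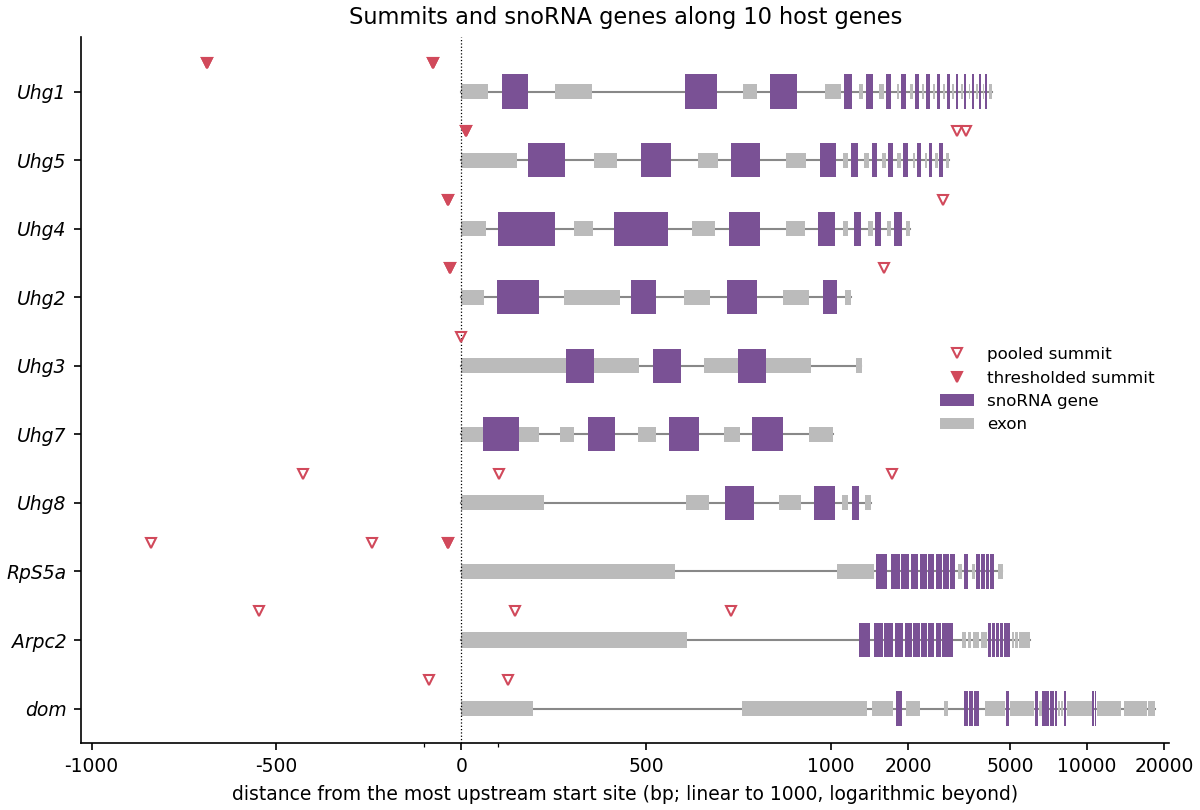
The 7 Uhg genes and RpS5a, Arpc2 and dom drawn from their most upstream TSS, in bp, linear to 1000 bp and logarithmic beyond, with snoRNA genes in purple and exons in grey. Filled triangles are summits of thresholded peaks and open ones summits of the pooled list; the filled ones lie at the starts of Uhg1, Uhg5, Uhg4, Uhg2 and RpS5a, and at 689 bp before Uhg1, and none lies over a snoRNA gene.

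Both bound and unbound genes were found among the hosts with few and with many snoRNA genes. The 5 hosts with the most snoRNA genes were Arpc2 (17), Uhg1 (16), dom (15), RpS5a (14) and Uhg5 (11), of which Arpc2 and dom were unbound. Arpc2 codes for a subunit of the actin nucleating Arp2/3 complex, and its best pooled region ranked 14833. The dom gene codes for the ATPase Domino, which exchanges histone variants; its best pooled region ranked 4520, and replicate 2 alone had it among its highest regions. Hosts of 1 snoRNA gene were bound in 19 of 55 cases (34.5%), those of 2 to 3 in 13 of 17 (76.5%) and those of 4 or more in 11 of 20 (55.0%). Bound hosts had a median of 2 annotated TSSs and unbound hosts of 1, so bound hosts had more positions at which a summit could be counted, and the part of this in the shares was not tested. With only the most upstream TSS, 39 hosts were bound. Of the 49 unbound hosts, 33 had a pooled summit within 500 bp of a TSS. Among the highest regions of at least 1 replicate, 19 had a summit. The pooled list reached 52.0% of all protein-coding genes, bound ones included, and replicates 1, 2 and 3 reached 16.0%, 13.0% and 16.1%. The share in at least 1 replicate was not taken over all genes.

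The bound hosts hold 133 of the 247 hosted snoRNA genes, 69 of them in ribosomal protein genes, 38 in Uhg genes and 26 in other coding genes. Yet a peak summit lay within 500 bp of 16 of the 247 (6.48%, exact interval 3.75 to 10.3%), with 15, 13 and 16 in the replicates (5.94% ± 0.618, SD, n = 3). Asking for a summit in both other replicates gave 10 hosted genes without replicate 1, 12 without replicate 2 and 11 without replicate 3, snoRNA:Me18S-C1968 included. Distances from the host TSS run here from the nearest one at or before the snoRNA gene. All 16 lie within 500 bp of it, where 33 snoRNA genes lie in all (48.5%), or 25 when only bound hosts are counted (64.0%). None of the 51 snoRNA genes at 501 to 1000 bp, the 73 at 1001 to 2000 bp and the 90 farther than 2000 bp from the host TSS had a peak summit nearby, and none of the 114 snoRNA genes in unbound hosts had one either. The pooled list put a summit near 8, 11 and 10 of the genes at those 3 distances, and near 17 of the 114. Over all hosted snoRNA genes it reached 49 of 247 (19.8%). Beside this, 28.3% of the host intron bases and 21.8% of the intron bases of protein-coding genes lay within 500 bp of a pooled summit. Near the limit of 500 bp, snoRNA:Or-CD11a in RpL28 (451 bp), snoRNA:Me28S-C3227a in Uhg5 (475 bp), snoRNA:U49:66Da in RpL14 (485 bp) and snoRNA:Me18S-G1620 in Uhg2 (490 bp) were just inside. Just outside were snoRNA:Psi28S-2648 in RpL36A (506 bp), snoRNA:Me18S-C1096 in RpL3 (515 bp), snoRNA:Psi18S-1295 in RpS20 (573 bp) and snoRNA:Me28S-A2113 in RpL30 (574 bp). Of the bases of host introns, 6.35% lay within 500 bp of a peak summit, beside the 6.48% of hosted snoRNA genes above. The share was 2.85% for the intron bases of all protein-coding genes, coding hosts included, and 2.52% for all bases of the arms. Introns were not matched for distance from a TSS.

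**Figure D5:**
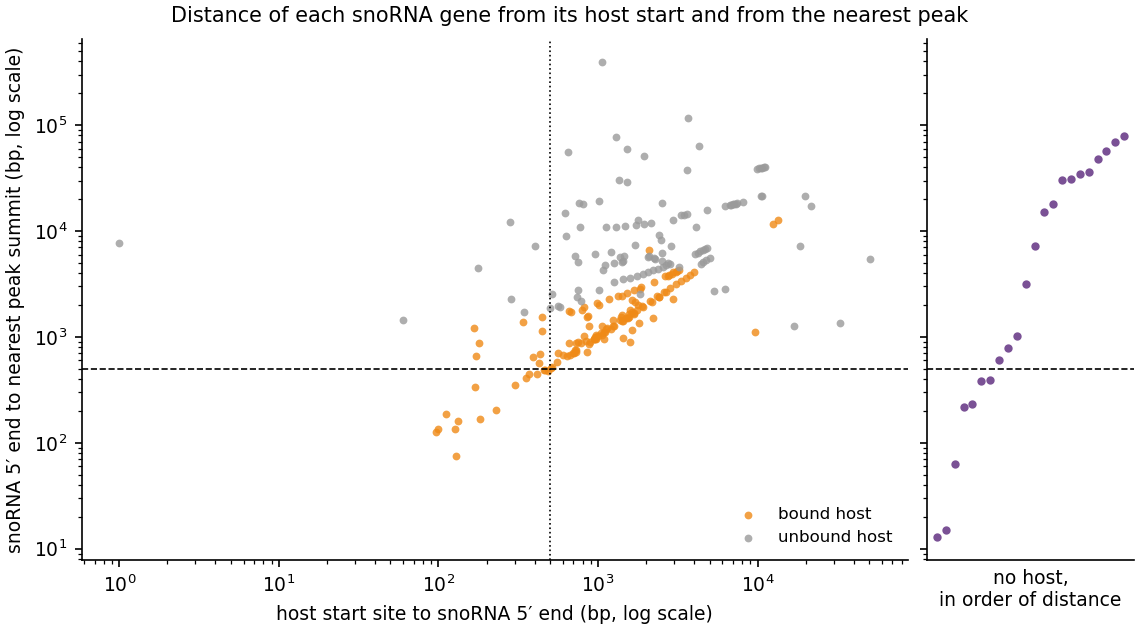
Horizontal, distance of each snoRNA gene from the nearest TSS of its host at or before it (bp, logarithmic). Vertical, its distance from the nearest peak summit (bp, logarithmic). Orange marks genes whose host is bound and grey those whose host is not. The right panel orders the 22 genes without a host by distance. Dashed and dotted lines mark 500 bp: the 16 hosted genes under the dashed line are all left of the dotted line, and all are orange.

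Over all 23 snoRNA genes near a peak, 22 had the summit on the 5′ side, a median of 218 bp before the gene, and 1 had it in the gene body. The 23 genes share 18 distinct peaks, with a median signal of 271 per gene. At 19 of the 23 the same summit was within 500 bp of the TSS of the host or of another coding gene, 16 of them at a host and 9 at another coding gene. Asked of both other replicates, 9 genes had such a summit without replicate 1, 10 without replicate 3 and 14 without replicate 2. By class, 9 of 107 C/D genes (8.41%), 10 of 114 H/ACA genes (8.77%), 0 of 16 scaRNA genes and 4 of 32 genes given no class were near a peak. The share of C/D and of H/ACA genes thus differed by less than the spread between replicates (7.48% ± 1.87 and 7.89% ± 0.877, SD, n = 3). The scaRNA genes are too few to tell 0 from these shares, since the exact interval reaches 20.6%.

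The hosted genes near a peak were spread over 13 hosts and 13 peaks, each with its summit within 500 bp of the host's TSS. The nearest was snoRNA:Or-aca2 in RpS6, an H/ACA gene with no assigned target in its name, whose summit lay 75 bp before the gene (signal 185.2, ranks 2065, 3161 and 2599). snoRNA:Psi18S-920 in RpL10Ab, named for a pseudouridine of 18S ribosomal RNA, had the summit 162 bp before it, and snoRNA:Me28S-A774b in RpS12, named for a methylated base of 28S RNA, had it 205 bp before it (signal 533.6, ranks 422, 975 and 254). snoRNA:Psi28S-1232 in RpL17 had it 406 bp away (638.6, ranks 338, 396 and 220). Further C/D and H/ACA genes were snoRNA:Me18S-G1358c in RpL15 at 134 bp (203.4, ranks 3421, 1220 and 1883) and snoRNA:Psi18S-1275 in RpS29 at 348 bp (287.9). The Uhg genes gave 7 of the 16: snoRNA:Psi28S-2949 and snoRNA:Or-aca5 in Uhg4 at 134 and 447 bp, and snoRNA:Me18S-C1366 and snoRNA:Me28S-C3227a in Uhg5 at 169 and 475 bp. The others were snoRNA:Me18S-A1576 and snoRNA:Me18S-G1620 in Uhg2 at 127 and 490 bp, and snoRNA:Me28S-G3081a in Uhg1 at 187 bp. In each Uhg gene these are the snoRNA genes nearest to the start. snoRNA:CG43051-a, which overlaps an exon of CG43051, lay 340 bp from a summit of signal 209.1 that ranked 1830, 4502 and 1643.

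Of the 22 snoRNA genes without a host, 7 had a peak summit within 500 bp (31.8%, exact interval 13.9 to 54.9%, beside 13.1% of all genes), but these share 5 peaks and vary between replicates. The replicates gave 7, 3 and 5 (22.7% ± 9.09, SD, n = 3), and snoRNA:Or-ACA6 alone had a summit in all 3. Counting only summits in both other replicates left 1 gene without replicate 1, 3 without replicate 3 and 4 without replicate 2. The pooled list put a summit near 17 of the 22 (77.3%, beside 46.7% of all genes). Among the 7, snoRNA:Psi28S-1153, snoRNA:2R:9445205 and snoRNA:2R:9445410 lie in a row on the minus strand of 2R and share the peak chr2R:13557883-13558252. Its signal was 280.4, it ranked 870 and 764 in replicates 1 and 3, and replicate 2 had no region there. The summit lay 382, 218 and 13 bp before the 3 genes and also within 500 bp of the start of CG13334. The RNA polymerase and the start of the primary transcript of these 22 genes are not given in the annotation, so a peak before such a gene cannot be assigned to a promoter from these data.

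At 4 genes the summit was near neither a host nor a coding TSS, and all 4 have no host. snoRNA:Or-ACA6 had the summit 388 bp before it (signal 177.1, ranks 2875, 2409 and 2817). It lies with snoRNA:Or-ACA7, scaRNA:MeU1b-A234 and snoRNA:Or-CD13 opposite egr, which codes for the tumour necrosis factor ligand Eiger. Peaks were 1019, 789 and 609 bp from those neighbours. snoRNA:185, of 55 bp, had the summit 231 bp before it (237.5, ranks 1298, 2244 and 4036). snoRNA:Psi18S-176 was the only snoRNA gene with a peak summit in its body, 15 bp from its 5′ end (261.6, ranks 841, 2486 and 6976). snoRNA:Psi18S-301 had the summit 63 bp before it, and its peak was weak (150.2, ranks 3489, 8808 and 6140). These last 3 ranked highest in replicate 1, and replicate 3 had none of them among its highest 3582 regions. The 3 genes of U3, the C/D snoRNA that guides cleavage of the ribosomal RNA precursor, have no host, and none had a peak nearby: the nearest summits were 17830, 34337 and 36224 bp away. A pooled summit lay 29 bp from snoRNA:U3:9B.

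Outside the peaks, 43 snoRNA genes had a pooled summit within 500 bp but no peak. Among these, snoRNA:Me18S-C1968 in an intron of Swim, was near a summit among the highest regions of all 3 replicates, with the pooled summit 32 bp away. Its nearest peak lay 2711 bp away. It was picked out after its values were seen.

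The proteins that act with snoRNAs were taken from a list of 14 genes of snoRNA-protein complexes and their assembly, of which 3 were bound (21.4%), beside the 15.4% of all protein-coding genes. Nopp140, a nucleolar phosphoprotein that binds both classes of snoRNA complexes, had the strongest peak: signal 2155, rank 19 among the peaks, ranks 22, 20 and 35 in the replicates, 47 bp before the TSS. It is also within 500 bp of the start of CG7148. NHP2, a core protein of H/ACA complexes, had a peak of signal 310.8 at 194 bp before its TSS, ranked 891 and 1418 in replicates 1 and 3, and had no region in replicate 2. Nop56, a core protein of C/D complexes, had a peak of signal 159.1 at 59 bp before its TSS and near the start of mats, with ranks of 3144 and 2498 and no region in replicate 2. Nopp140 was thus the only list member among the highest regions of all 3 replicates. The unbound members include Fib, the methyltransferase fibrillarin, nop5, a C/D core protein, and Nop60B, the pseudouridine synthase. These 3 are themselves hosts, with best pooled ranks of 4671, 7407 and 6118. The best pooled region at hoip, a C/D core protein, ranked 3654, and those at pont and rept, ATPases that help assemble the complexes, ranked 3648 and 4219. The best pooled regions at Nop10, of the H/ACA complex, and at Nufip, CG10055 and CG10341 ranked 21765, 5511, 8164 and 18404. Gar1, also of the H/ACA complex, had no pooled summit within 500 bp.

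Elements known from fly promoters, and GAATACCC from earlier work on these data, were sought on either strand. The search reached 100 bp from the summit at the 43 bound hosts and 100 bp from the most upstream TSS of all protein-coding genes. TATCGATA, the DNA replication-related element, was present at 5 host peaks (11.6%), beside 7.10% of the 1832 peaks near a coding TSS and 7.83% of promoters. All 5, at RpL10Ab, RpL28, RpL36A, RpS12 and RpS29, are ribosomal protein genes, and the 48 bound ribosomal protein genes that host no snoRNA had it in 13 cases (27.1%). CGATA, which every TATCGATA contains, was present at 20 host peaks (46.5%), beside 37.2% and 39.3%. GGTCACAC was present at 5 (11.6%, beside 6.93% and 6.74%), among them RpL27A, RpL30, Uhg5 and eEF1alpha1. GAATACCC was present at 3 host peaks (6.98%, beside 4.59% and 0.651%), those of RpL11, RpS4 and CG1142. These rank among the 4 strongest host peaks. The element was picked from these data, so neither its share nor this ranking is independent of that choice. GAGAG was present at 9 (20.9%, beside 29.0% and 22.5%) and TATAAA at 10 (23.3%, beside 24.1% and 29.2%). TATAAA was present at all 4 bound Uhg genes, at Uhg2 in the transcribed stretch that is not printed.

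TCTTT at the start, part of the polypyrimidine initiator known from ribosomal protein genes, was sought on the sense strand from 5 bp before to 1 bp after the annotated TSS. It was present at 4 of 92 hosts (4.35%), beside 1.23% of all protein-coding genes and 12 of the 60 ribosomal protein genes that host no snoRNA. All 4 were bound, and RpL14, RpS6 and Uhg5 were among them. Of the 4, 3 are ribosomal protein hosts, a group bound in 26 of 28 cases. TCTTT was present at 9.30% of the 43 bound hosts, beside 1.76% of the 2155 bound protein-coding genes. A link between TCTTT and binding was not tested.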

How the data were processed

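ChIP-seq of a wek fusion protein in 3 biological replicates was analysed from the lists of regions that the authors deposited on dm6, per the labels. Each deposited region has a signal value of the authors' caller, a −log10 q-value and a summit offset; aligner, caller, versions and the threshold of the peaks were not given in the sources used here. The relaxed lists were called against 1 control, per the deposited lists of files. The 3582 peaks are the 3582 pooled regions of highest signal. In 4 regions the summit lay beyond the last base and was moved onto it.

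Genes came from Ensembl release 115 (BDGP6.54) without transposable elements, and sequences were read from the RefSeq copy of that assembly. Where 2 genes could host a snoRNA gene, which held for 12 of them, the shorter was taken. A snoRNA gene counted in an unbound host can thus also lie in a longer, bound gene, such as RpL22. Distances run from the summit to the 5′ end of a snoRNA gene or to the nearest TSS of another gene. Scripts used Python 3.11.15, pandas 2.3.3, numpy 2.4.6, scipy 1.17.1 and matplotlib 3.10.9, and were tested on simulated data with planted summits. Intervals are Clopper-Pearson. A replicate's rank at a gene is that of its region overlapping the peak by at least 1 bp, or none. Named are all snoRNA genes near a peak, the 10 bound hosts of highest signal, the 5 hosts with most snoRNA genes, and the listed snoRNA-protein genes. Further named hosts were chosen after their values were seen, and members, lists and elements were chosen with earlier results of these data known. Results for some single genes are not reported here. Alternatives were other windows, other sets of regions, each replicate alone or left out, and other definitions of a host.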

Additional observations from a re-analysis of the deposited data

How the results depend on the processing

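Depth is unknown, replicate 2 is the weakest, and no untagged line was analysed here, so the counts below describe these lists only. Of 47 alternatives fixed at the outset, 30 kept the count within 1.5 times and 17 moved it. snoRNA genes near a peak numbered 23 and became 13 at 250 bp, 58 at 1000 bp and 14 with the 1791 strongest peaks; those whose summit was also near a host or coding TSS numbered 19 and became 8, 53 and 12, or 12 with replicate 2 alone. Those near a pooled summit numbered 66 and became 39 at 250 bp, 123 at 1000 bp and 25 up to a q-value of 0.01. Those in all 3 replicates numbered 11 and became 7 and 42 at those windows. A wider window reaches more hosted snoRNA genes by construction. Leaving out a replicate means asking for a summit in both others: it gave 11 to 16 in place of the 23, 9 to 14 in place of the 19, 11 to 16 in place of the 11, and 36 to 40 bound hosts in place of the 43. Genes and hosts without a peak can meet this rule, so these counts are not subsets. The 43 bound hosts stayed between 34 (strongest peaks) and 61 (pooled regions up to a q-value of 0.01), except that 17 of 64 were bound without ribosomal protein genes. By the same leave-out, added after the data were seen, snoRNA genes without a host gave 1 to 4 in place of 7, those in a host 10 to 12 in place of 16, ribosomal protein hosts 24 to 25 in place of 26, other coding hosts 10 to 13 in place of 13, and Uhg genes 2 in place of 4. No paired analysis was possible because there is only 1 group.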
